A study of Mus musculus with 7 samples.

Results

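Imprinted genes that regulate growth were examined in mouse pancreatic ductal adenocarcinoma (PDA) tumors in which *Krt19* had or had not been edited. The 10 genes are *H19*, *Igf2*, *Meg3*, *Dlk1*, *Peg3*, *Peg10*, *Plagl1*, *Cdkn1c*, *Mest* and *Grb10*. They were taken by symbol from the 38026 genes of the deposited table, and all 10 passed the filter on low values. The tumors grew under the skin of C57BL/6 mice (6 wk old at purchase, then housed for 2 wk) from 1242 KPC cells. They were collected 2 wk after inoculation, and the RNA-seq methods of the study name no other treatment for them. The 1242 line came from a pancreatic tumor of an engineered mouse with Pdx1-Cre, which acts in the pancreas, and both groups share its background. Cells of both groups also carried lentiviral Cas9 with puromycin selection, and differed in the guide RNA, which was scrambled in sgScramble (n = 4 tumors, replicates 1 to 4) and directed at *Krt19* in sgKrt19 (n = 3 tumors, replicates 5, 6 and 8). The study made polyclonal and single-cell-derived lines, and the labels say neither which kind was injected nor which guide it carried. A property of the injected line and an effect of the guide cannot be told apart. The mice had intact immune systems, and host cells contribute to the RNA.

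An imprinted gene is expressed mainly from the copy inherited from one parent, because a control region that was methylated in the egg or in the sperm keeps that mark after fertilization. Most imprinted genes lie in clusters that share such a region, and many act on fetal and placental growth, with paternally expressed members often promoting growth and maternally expressed members often restraining it. After birth many of them fall to low levels in most tissues and can return in regenerating tissue and in tumors. *Igf2* encodes a fetal growth factor and lies in the same cluster as *H19*, a long noncoding RNA. *Dlk1*, a transmembrane relative of Notch ligands, shares a cluster with the noncoding RNA *Meg3*. *Cdkn1c* encodes the cell cycle inhibitor p57, and *Grb10* an adaptor that dampens insulin and IGF receptor signaling. *Plagl1* and *Peg3* encode zinc finger proteins, *Peg10* a retrotransposon-derived protein needed for the placenta, and *Mest* a protein of the hydrolase fold.

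Several of the 10 genes are also microRNA hosts, and the mature sequences from RefSeq (GRCm38.p6) show what lies inside the transcripts that were counted. Within the spans of the members, 9 mature microRNAs were found, in 4 genes. Both arms of miR-675 lie in an exon of *H19*, those of miR-770 and the mature miR-1906 in exons of *Meg3*, those of miR-483 in an intron of *Igf2* and those of miR-335 in an intron of *Mest*, each on the strand of its host. Capitals mark the seed, bases 2 to 8, and the 9 seeds are all different.
mmu-miR-675-5p (*H19*, chr7:142577112-142577133, minus strand): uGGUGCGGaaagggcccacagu
mmu-miR-675-3p (*H19*, chr7:142577078-142577099, minus strand): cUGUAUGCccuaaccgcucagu
mmu-miR-483-5p (*Igf2*, chr7:142654968-142654989, minus strand): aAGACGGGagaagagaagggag
mmu-miR-483-3p (*Igf2*, chr7:142654932-142654952, minus strand): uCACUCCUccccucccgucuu
mmu-miR-770-5p (*Meg3*, chr12:109563710-109563731, plus strand): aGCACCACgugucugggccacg
mmu-miR-1906 (*Meg3*, chr12:109544588-109544609, plus strand): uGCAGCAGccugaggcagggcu
mmu-miR-335-5p (*Mest*, chr6:30741314-30741336, plus strand): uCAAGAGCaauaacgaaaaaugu
The libraries hold long RNA, so mature microRNAs were not measured. The *Mir675* row of the table counts reads over its precursor within the *H19* exon. It was 6.96% to 9.89% of the *H19* value across the 7 libraries and is not independent of *H19*. The *Mir1906-1* row, over a *Meg3* exon, was 7.31 to 27.8 in sgScramble and 3.0 to 6.30 in sgKrt19 tumors, and was below the filter. The *Mir770* rows were at 0 in all libraries, and the *Mir335* row held 1 read in total.

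One member, *Plagl1*, encodes a factor known to bind a GC-rich palindrome, and the promoters of the members were searched for it. RefSeq windows of 300 bases, most of them upstream of the start, were matched for 7 of the 10 genes and gave 14 different windows. The letters GGGGCCCC, which read the same on both strands, were present in 1 of the 14 windows, that of *Peg3*, and in 352 of 32817 windows over all genes (1.07%). The match lies 201 bases before the *Peg3* start, and is shown in capitals in the first 100 bases of the window.
*Peg3* (chr7:6730570-6730669, minus strand, GRCm38.p6): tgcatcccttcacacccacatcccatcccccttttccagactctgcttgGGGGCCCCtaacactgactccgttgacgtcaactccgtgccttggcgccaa
A match in letters is a description, and binding was not measured. The member windows held a median of 13 CpG pairs, against 7 over all windows.

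Values are given as normalized read counts, in which the reads of each gene were divided by a size factor for its library. Each library held between 40781199 and 44972100 reads. Errors after ± are SDs over the tumors of a group, and log2 fold changes are sgKrt19 against sgScramble on the scale of log2(value + 1), which understates changes of genes with few reads. A gene is said to be called where limma gave an adjusted p under 0.05 over all genes tested. *Krt19* was 25574, 21179, 27618 and 17841 in sgScramble tumors and 1606, 1960 and 2470 in sgKrt19 tumors, so the libraries match their labels. The 6 markers of epithelial cancer cells were all detected, with sums of 117297 to 158537 in sgScramble and 237947 to 247293 in sgKrt19 tumors. Of these 6, 3 were called higher and the others were not called. The sum of 8 skeletal muscle markers was 49.2, 75.1, 2072 and 92.7 in sgScramble tumors and 25103, 18269 and 26215 in sgKrt19 tumors, and all 8 were called higher. sgScramble 3 thus stood apart from the other sgScramble tumors, and results are given without it where that changes a call. The 8 fibroblast markers were not called in either direction, and their sums overlapped (99217 to 231334 in sgScramble and 115288 to 130526 in sgKrt19). The sum of 6 leukocyte markers was 3107 to 4647 in sgScramble and 5353 to 7795 in sgKrt19 tumors, and that of 6 endothelial markers 3119 to 4721 and 4812 to 5380, with 3 of each list called higher. Adipocyte markers were not called, and 1 of 3 tested skin keratinocyte markers was lower. The part of these cells in the results was not tested. In whole tumors, fewer cells of a type and less RNA per cell cannot be told apart.

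Of the 10 genes, 4 differed between the groups. *Igf2* was higher in sgKrt19 tumors, and *Peg10*, *Plagl1* and *Dlk1* were lower. limma called 34.0% of all 21322 genes tested (17.9% higher and 16.0% lower), so 4 of 10 is a share near that of all genes. For the same 4 genes the tumors of the groups did not overlap, which was so for 41.1% of all genes tested. The median log2 fold change of the 10 was −0.13, and that of all genes tested was 0.0072. All 4 belong to the 6 members that are expressed from the paternal copy in most tissues (*Igf2*, *Dlk1*, *Peg3*, *Peg10*, *Plagl1* and *Mest*). Of the 4 that are mainly maternal (*H19*, *Meg3*, *Cdkn1c* and *Grb10*), limma called 0, with 1 at an unadjusted p under 0.05. edgeR's quasi-likelihood test called 0 of these 4 and DESeq2 called 1. The counts do not say which copy was expressed, and the split by parent was not tested.

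**Figure D1:**
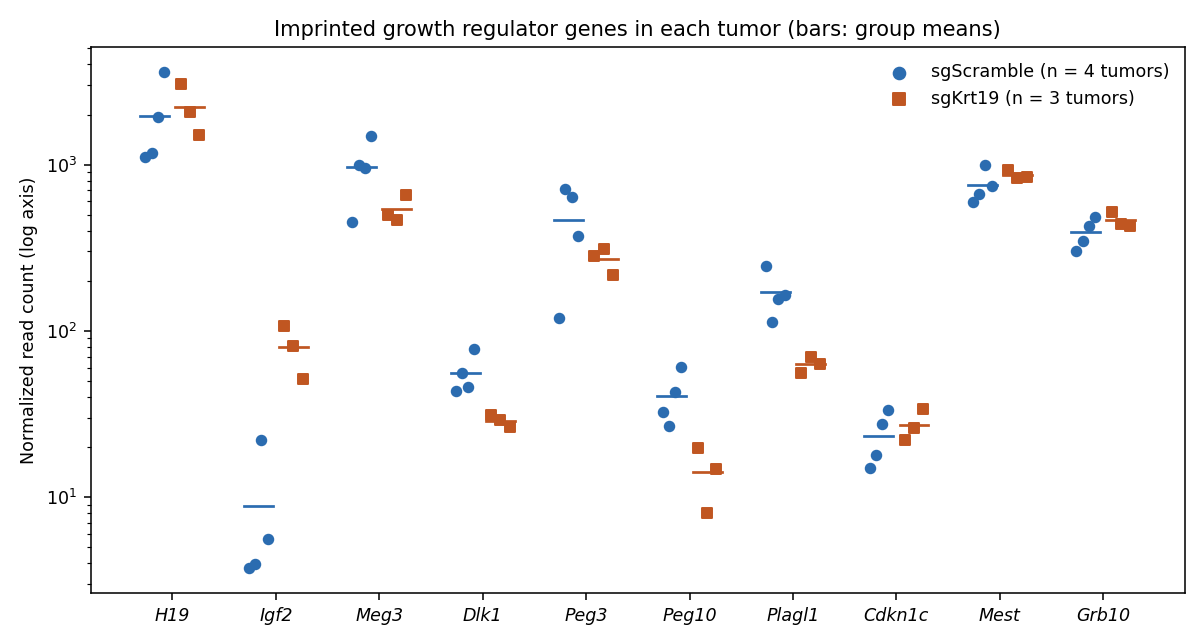
Normalized read counts (vertical log axis) of the 10 imprinted genes in each tumor, with sgScramble as blue circles (n = 4) and sgKrt19 as orange squares (n = 3), and group means as bars. The squares lie above all circles for *Igf2* and below all circles for *Dlk1*, *Peg10* and *Plagl1*, and overlap with them for the other 6 genes.

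The growth factor gene *Igf2* (ENSMUSG00000048583.16) spans bases 142650766 to 142666816 of chromosome 7 (GRCm38, minus strand). It was 3.72, 3.95, 21.9 and 5.56 in sgScramble tumors 1 to 4 and 108, 81.0 and 51.5 in sgKrt19 tumors 5, 6 and 8. The sgScramble tumors held 4 to 6 reads of the gene except sgScramble 3, which held 24, and the sgKrt19 tumors held 49 to 93. Every sgKrt19 tumor lay above every sgScramble tumor. *Igf2* rose by 3.33 on the log2 scale (SE 0.539, adjusted p = 0.0014 by limma) and by 3.86 without sgScramble 3. *Igf2* was the only member called by a test for changes beyond 1.5-fold. Of its exon bases, 62.8% are also exon bases of *Gm49394* on the same strand, whose values were 96.3% to 100% of those of *Igf2* in every library. Reads of these loci were counted at both, and the 2 genes cannot be told apart.

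The *Igf2* values were set beside sums of muscle markers. In sgScramble tumors the order of *Igf2* values was that of the summed skeletal muscle markers, with sgScramble 3 at the top of both. *Mest* had this order too. sgScramble 1 and 2 held 4 reads of *Igf2* each, so their order rests on the size factors alone. In sgKrt19 tumors *Igf2* did not have the order of the skeletal muscle sum. Markers of muscle progenitors and regenerating muscle (*Pax7*, *Myod1*, *Myog*, *Myf5*, *Myh3* and *Myh8*) were also summed. *Igf2* had the order of that sum in sgKrt19 tumors but not in sgScramble tumors, and in sgKrt19 tumors it had the order of the fibroblast sum as well. *H19*, *Dlk1* and *Grb10* had the same order in sgKrt19 tumors, so the order among 3 tumors does not set *Igf2* apart. This sum was 1.86, 2.96, 72.2 and 1.85 in sgScramble tumors and 857, 598 and 477 in sgKrt19 tumors. Of the 6 markers, 4 were tested and all 4 were called higher. *Myod1*, which commits cells to the muscle lineage, was 0, 0, 0.913 and 0 in sgScramble tumors and 27.7, 14 and 14.7 in sgKrt19 tumors. *Pax7*, the marker of muscle stem cells, was at most 2.96 in any library and was not tested. The part of muscle RNA in the *Igf2* difference was not tested.

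*H19* (ENSMUSG00000000031.16) lies on the same strand of chromosome 7 at 142575529 to 142578143, at a distance of 72.6 kb from *Igf2*. It was 1108, 1179, 1940 and 3595 in sgScramble tumors and 3058, 2068 and 1515 in sgKrt19 tumors. The sgScramble values spanned 3.24-fold and enclosed all 3 sgKrt19 values. The log2 fold change was 0.29 (SE 0.379, adjusted p = 0.57). Its 95% interval ran from −0.55 to 1.13 and includes a rise of more than 1.5-fold. Its value depended on single tumors, with a log2 fold change of 0.64 without sgScramble 4 and 0.03 without sgKrt19 5. *H19* had the order of the summed fibroblast markers within each group, as did *Grb10* and no other member. The part of fibroblast RNA was not tested.

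The 2 neighbors were then set against each other within each tumor. *H19* was 298, 298, 88.5 and 646 times the *Igf2* value in sgScramble tumors and 28.4, 25.5 and 29.4 times in sgKrt19 tumors. The groups did not overlap, and the ratio was nearly constant among sgKrt19 tumors. The difference in the log2 ratio was −3.27. A two-sided exact permutation test over the 35 regroupings gave p = 0.0571, and 0.114 after adjustment for the 2 ratios examined. The ratio rests on the same *Igf2* values and is not independent of the *Igf2* difference.

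**Figure D2:**
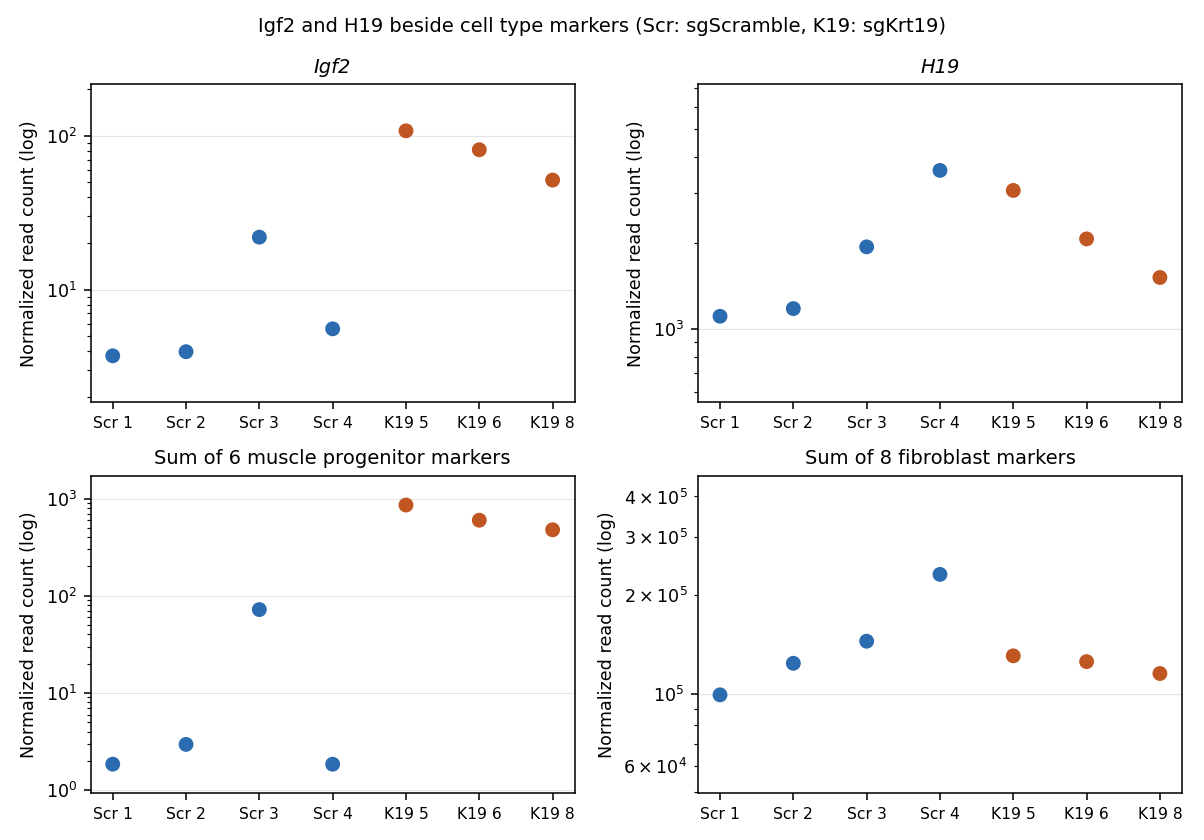
Normalized read counts (log axes) of *Igf2* and *H19*, and sums of 6 muscle progenitor and 8 fibroblast markers, in each sgScramble (Scr, blue) and sgKrt19 (K19, orange) tumor. *Igf2* and the muscle progenitor sum are highest in the 3 sgKrt19 tumors, followed by sgScramble 3, whereas *H19* and the fibroblast sum are highest in sgScramble 4.

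*Plagl1* (ENSMUSG00000019817.18, chromosome 10 at 13060504 to 13131694, plus strand) encodes a zinc finger factor that can arrest the cell cycle and regulates other imprinted genes. It was 246, 113, 156 and 165 in sgScramble tumors and 55.5, 70.0 and 63.0 in sgKrt19 tumors. The sgKrt19 values were close together and all lay below the lowest sgScramble value. *Plagl1* fell by 1.37 on the log2 scale (SE 0.253, adjusted p = 0.0029). It kept its call without each tumor in turn, at −1.55 to −1.18.

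*Peg10* (ENSMUSG00000092035.8, chromosome 6 at 4747306 to 4760517, plus strand) was 32.5, 26.7, 42.9 and 60.3 in sgScramble tumors and 19.7, 8.0 and 14.7 in sgKrt19 tumors. Both groups varied more than 2-fold within themselves, and they did not overlap. *Peg10* fell by 1.48 on the log2 scale (SE 0.374, adjusted p = 0.0139). It was also called without each tumor in turn, at −1.74 to −1.14.

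*Dlk1* (ENSMUSG00000040856.17, chromosome 12 at 109452823 to 109463336, plus strand) was 43.7, 55.3, 45.7 and 77.9 in sgScramble tumors and 31.2, 29.0 and 26.3 in sgKrt19 tumors. The sgKrt19 values were all lower and had a coefficient of variation (CV, the SD as a percentage of the mean) of 8.62%. *Dlk1* fell by 0.89 on the log2 scale (SE 0.259, adjusted p = 0.0244). The call was lost without sgScramble 2 (adjusted p = 0.0616), sgScramble 4 (0.0684), sgKrt19 6 (0.0541) or sgKrt19 8 (0.0683), with a log2 fold change of −0.90 to −0.72 in these fits. A second row of the same name, with an identifier outside the annotation used, held identical values and was not counted again.

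*Meg3* (ENSMUSG00000021268.17, chromosome 12 at 109541001 to 109571726, plus strand) lies 77.7 kb from *Dlk1*. It was 454, 987, 951 and 1491 in sgScramble tumors and 499, 466 and 657 in sgKrt19 tumors. sgScramble 1 was the lowest of the 7, and the other 3 sgScramble tumors lay above all sgKrt19 tumors. The log2 fold change was −0.74 (SE 0.324, adjusted p = 0.10) and the gene was not called. Without sgScramble 1 it was −1.06 and was called (adjusted p = 0.0049). DESeq2 on the recovered reads also called it (adjusted p = 0.0202). *Meg3* was 10.4, 17.8, 20.8 and 19.1 times the *Dlk1* value in sgScramble tumors and 16.0, 16.1 and 25.0 times in sgKrt19 tumors. These ratios overlapped, with a difference of 0.17 on the log2 scale (exact permutation p = 0.657, two-sided).

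*Peg3* (ENSMUSG00000002265.16, chromosome 7 at 6703892 to 6730431, minus strand) showed the same pattern of one low control. It was 120, 713, 642 and 370 in sgScramble tumors and 283, 312 and 215 in sgKrt19 tumors. sgScramble 1 was again the lowest of all, and the sgScramble values spanned 5.95-fold against 1.45-fold in sgKrt19 tumors. The log2 fold change was −0.50 (SE 0.509, adjusted p = 0.47), with a 95% interval of −1.63 to 0.63. Without sgScramble 1 it was −1.05 and was called (adjusted p = 0.0134). sgScramble 1 had the lowest fibroblast sum (99217) and the highest adipocyte sum (3305) of the 7 tumors, and the part of either in these values was not tested.

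The remaining 3 members, *Cdkn1c*, *Grb10* and *Mest*, overlapped between the groups and were not called. *Cdkn1c* (ENSMUSG00000037664.13, chromosome 7 at 143458339 to 143461050, minus strand) was 14.9, 17.8, 27.4 and 33.4 in sgScramble tumors and 22.0, 26 and 33.6 in sgKrt19 tumors. Its log2 fold change was 0.26 (95% interval −0.48 to 1.0, adjusted p = 0.57). An antisense gene, *Gm44732*, covers 30.7% of its exon bases. *Grb10* (ENSMUSG00000020176.17, chromosome 11 at 11930508 to 12038683, minus strand) was 300.0, 349, 427 and 487 in sgScramble tumors and 521, 437 and 425 in sgKrt19 tumors. Its log2 fold change was 0.26 (95% interval −0.14 to 0.65, adjusted p = 0.28). *Mest* (ENSMUSG00000051855.15, chromosome 6 at 30723547 to 30748465, plus strand) was 597, 662, 998 and 743 in sgScramble tumors and 928, 825 and 841 in sgKrt19 tumors. Its log2 fold change was 0.23 (95% interval −0.14 to 0.60, adjusted p = 0.30), and 23.1% of its exon bases overlap *Copg2* on the other strand. Whether reads were counted by strand is not given in the sources used here. Antisense reads therefore cannot be told apart from those of *Cdkn1c*, *Mest* and *Copg2*.

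The spread among control tumors was wider for these genes than for most. The median CV of the 10 genes in sgScramble tumors was 36.5%, against 14.95% over all genes tested. In sgKrt19 tumors it was 18.6%, against 15.7%. The largest CV in sgScramble was that of *Igf2* (100%), followed by *H19* (59.1%) and *Peg3* (58.9%), and the smallest was that of *Grb10* (21.2%). In sgKrt19 tumors the CV ran from 6.42% for *Mest* to 41.4% for *Peg10*. The CV of genes with few reads includes counting error.

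To compare levels between the genes, TPM values were computed, in which the recovered reads of a gene are divided by its exon length and scaled to the same sum in every library. In sgScramble tumors *H19* stood at 35.1 ± 24.1 TPM and *Mest* at 8.14 ± 2.00 TPM (SD, n = 4), and the tumors of *H19*, *Mest* and the next gene did not overlap. *Meg3* (2.36), *Grb10* (1.86), *Peg3* (1.49), *Plagl1* (0.919), *Cdkn1c* (0.499), *Dlk1* (0.428) and *Peg10* (0.265) followed in mean TPM, and each of these overlapped with its neighbor in the order. *Igf2* was the lowest at 0.0649 ± 0.0628 TPM, with every tumor below every *Peg10* value. In sgKrt19 tumors *H19* (28.8 ± 6.58 TPM, n = 3) and *Mest* (7.19 ± 0.616) again led without overlap. *Igf2*, at 0.450 ± 0.117 TPM, stood in the sixth place, between *Peg3* (0.669) and *Cdkn1c* (0.446), and overlapped with *Cdkn1c* but not with *Peg3*. *Plagl1* (0.268), *Dlk1* (0.167) and *Peg10* (0.0674) came last, and did not overlap with one another. All of the members except *H19* and *Mest* were thus below 4 TPM in every tumor.

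The other genes of the same imprinted clusters, and imprinted genes elsewhere, were then examined with a list of 58 genes. Of these, 55 were in the table, 43 passed the filter and 20 were called, with 5 higher and 15 lower in sgKrt19 tumors, where 34.0% of all genes tested were called (17.9% higher and 16.0% lower). The groups did not overlap for 22 of the 43, against 41.1% of all genes tested. Their median log2 fold change was −0.19, against 0.0072 over all genes tested. Scaling by library size alone shifted the median of all genes tested to −0.21, and the list then had 3 genes higher and 19 lower. Changes are reported on the scale of the deposited size factors.

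In the *Peg10* cluster on chromosome 6, all 4 tested neighbors were called lower, as *Peg10* was, where 16.0% of all genes tested were called lower. *Ppp1r9a*, which encodes the actin-binding protein neurabin, was 163, 326, 150 and 300 in sgScramble tumors and 8.09, 7.0 and 8.40 in sgKrt19 tumors. The sgKrt19 values were nearly equal and far below every sgScramble value, and the gene fell by 4.66 on the log2 scale (SE 0.308, adjusted p = 2.4e-05). *Asb4*, an ankyrin repeat protein of ubiquitin ligases, fell by 1.29 on the log2 scale (SE 0.299, adjusted p = 0.0094). *Sgce*, which encodes epsilon-sarcoglycan and starts 0.099 kb from *Peg10*, was 247, 164, 294 and 312 in sgScramble tumors and 163, 135 and 141 in sgKrt19 tumors. The gap between the lowest control and the highest edited tumor was small, at a log2 fold change of −0.76 (adjusted p = 0.0261). *Tfpi2*, a protease inhibitor, fell by 0.57 (adjusted p = 0.0350). The calls of *Sgce* and *Tfpi2* were lost without sgScramble 3, sgScramble 4, sgKrt19 6 or sgKrt19 8. *Calcr* of the same list was not analysed here.

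In the *Dlk1*-*Meg3* cluster on chromosome 12, the noncoding RNAs *Rian* and *Mirg* were called lower. *Rian*, a host of small nucleolar RNAs, was 751, 787, 771 and 1187 in sgScramble tumors and 679, 567 and 586 in sgKrt19 tumors and fell by 0.49 on the log2 scale (SE 0.170, adjusted p = 0.0465). *Mirg*, a microRNA host, was 37.2, 44.5, 58.5 and 51.9 in sgScramble tumors and 22.0, 29.0 and 32.6 in sgKrt19 tumors, and fell by 0.76 (SE 0.257, adjusted p = 0.0431). Both sit close to the threshold, and both lost the call without a filter on low values and without sgScramble 2, sgScramble 4 or any sgKrt19 tumor, and *Mirg* also without sgScramble 3. *Rtl1*, a retrotransposon-derived gene expressed from the paternal copy as *Dlk1* is, was 8.36, 16.8, 18.3 and 39.0 in sgScramble tumors and 10.4, 8.0 and 3.15 in sgKrt19 tumors. The groups overlapped through sgScramble 1 (log2 fold change −1.33, adjusted p = 0.0732). Without sgScramble 1 *Rtl1* was called (−1.67, adjusted p = 0.0279), as it was by DESeq2 and under scaling by library size alone. MicroRNA genes on the other strand overlap its exons, so antisense reads cannot be told apart from those of *Rtl1*. *Dio3*, the enzyme that inactivates thyroid hormone, lay at the far end of the cluster with a log2 fold change of 0.06 (SE 0.353), whose sign changed with the scaling.

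In the cluster of *Cdkn1c* on chromosome 7, *Phlda2*, a gene known to restrain placental growth, was nearly lost from sgKrt19 tumors. It was 68.7, 49.4, 110.5 and 53.8 in sgScramble tumors and 0, 3.0 and 2.10 in sgKrt19 tumors, which is 303 against 5 reads. The ratio was 40.1 (95% interval from the reads 17 to 124, counting error only), and the limma log2 fold change was −4.88 (adjusted p = 0.000132). *Phlda2* lies 40.5 kb from *Cdkn1c*, which was not called. *Kcnq1*, a potassium channel gene, was 214, 187, 274 and 186 in sgScramble tumors and 131, 130 and 103 in sgKrt19 tumors (log2 fold change −0.81, SE 0.189, adjusted p = 0.0095). The antisense RNA *Kcnq1ot1*, which silences the cluster on the paternal copy, had a log2 fold change of −0.12 (SE 0.240) whose sign changed without sgScramble 2 or sgKrt19 5. *Kcnq1ot1* lies within the span of *Kcnq1* on the other strand, and whether counting used strand is not given. Reads of *Kcnq1* and *Kcnq1ot1* thus cannot be fully told apart. The transporter gene *Slc22a18* overlapped between the groups at 0.38 (adjusted p = 0.32). Without sgScramble 3 it was 0.63 and was called. *Ascl2* and *Igf2os* were below the filter, at no more than 6.94 in any tumor.

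The clusters of *Grb10*, *Mest* and *Peg3* held fewer tested neighbors. *Cobl*, an actin nucleator gene at 198 kb from *Grb10*, was 38.1, 84.0, 73.1 and 53.8 in sgScramble tumors and 177, 237 and 194 in sgKrt19 tumors. All edited tumors were higher (log2 fold change 1.74, SE 0.271, adjusted p = 0.0012). *Ddc*, the decarboxylase gene on the other side of *Grb10*, was not called (−0.34, adjusted p = 0.20). *Copg2*, a coat protein gene next to *Mest*, differed by −0.07 (95% interval −0.28 to 0.15) and had the smallest spread of the neighbors. *Zim1*, a zinc finger gene at 7.44 kb from *Peg3*, was 62.1 in sgScramble 3, 1.86 to 8.35 in the other sgScramble tumors and 9.45 to 11.6 in sgKrt19 tumors. As with *Igf2*, the highest control was sgScramble 3, which had the largest skeletal muscle sum of the controls (2072). Unlike *Igf2*, *Zim1* was lower in the sgKrt19 tumors than in sgScramble 3, and their muscle sums were larger (18269 to 26215). The part of muscle in *Zim1* was not tested.

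**Figure D3:**
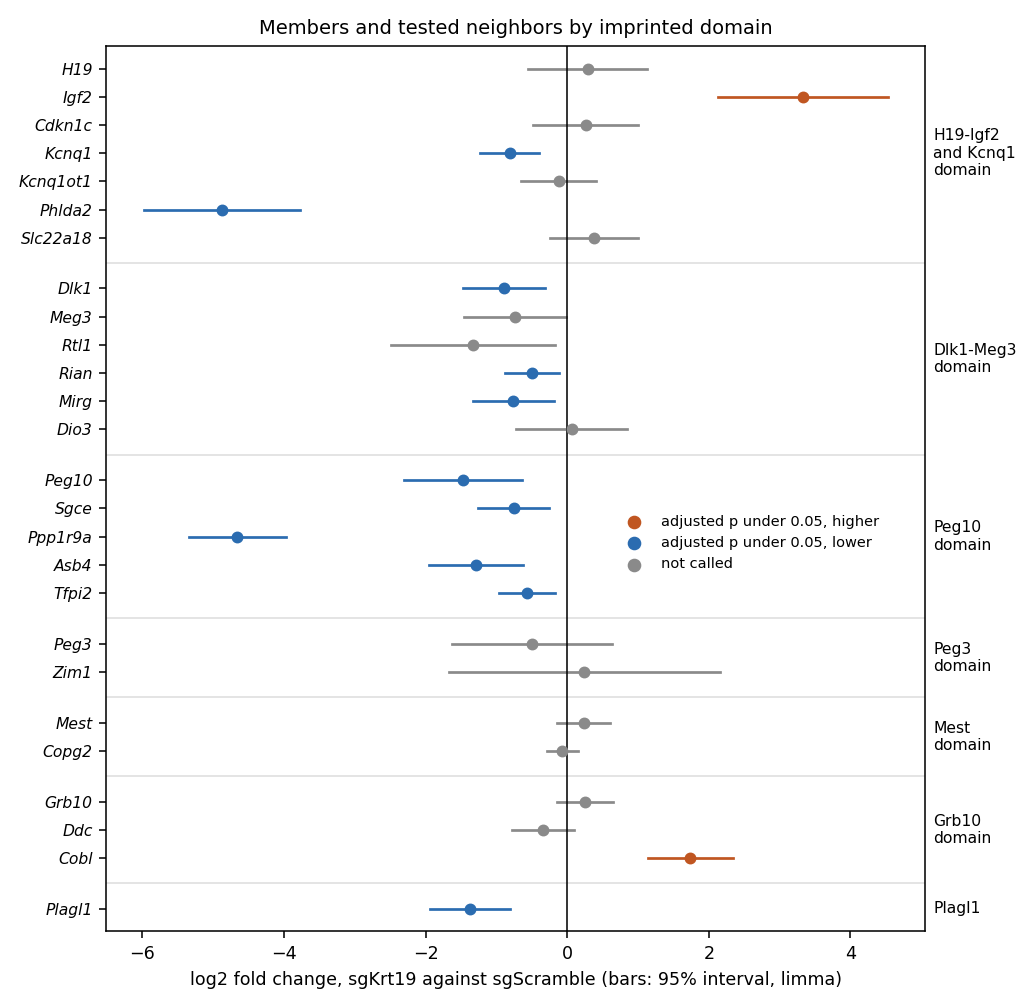
Log2 fold changes (horizontal axis, sgKrt19 against sgScramble, limma) of the 10 members and their tested neighbors, grouped by imprinted cluster, with 95% intervals as bars and colors for calls at an adjusted p under 0.05. All 5 genes of the *Peg10* cluster lie below 0, *Igf2* and *Cobl* are the only 2 called higher, and *Phlda2* and *Ppp1r9a* have the lowest values.

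Outside these clusters, 11 of 27 tested imprinted genes were called, 4 higher and 7 lower, beside 34.0% of all genes tested. The ubiquitin ligase gene *Mkrn3* was 21.4, 12.8, 17.4 and 13.9 in sgScramble tumors and 69.4, 41.0 and 72.5 in sgKrt19 tumors (log2 fold change 1.82, SE 0.301, adjusted p = 0.0017). *Qpct*, a glutaminyl cyclase gene, rose by 0.93 (adjusted p = 0.0092). *H13* and *Blcap*, which lie on chromosome 2, rose by 0.47 and 0.39, and both lost the call under scaling by library size alone. *H13* also lost it without sgScramble 2 or sgKrt19 5, and *Blcap* without sgScramble 4, sgKrt19 5 or sgKrt19 8. *Rasgrf1*, a guanine nucleotide exchange factor gene, was 28.8, 41.5, 23.7 and 50.1 in sgScramble tumors and 10.4, 16.0 and 6.30 in sgKrt19 tumors (−1.66, SE 0.376, adjusted p = 0.0083). The splicing factor gene *Zrsr1* fell by 0.59 (adjusted p = 0.0039) and the adaptor gene *Gab1* by 0.51 (adjusted p = 0.0250), which lost the call without any tumor other than sgScramble 1 or sgKrt19 8. *Airn*, the noncoding RNA that silences *Igf2r* on the paternal copy, was 69.7, 132, 84.9 and 169 in sgScramble tumors and 67.1, 48.0 and 56.7 in sgKrt19 tumors. All edited tumors were lower (−0.91, adjusted p = 0.0423), and the call was lost without a filter on low values and without any tumor other than sgScramble 1 or 3. *Igf2r* itself was not called.

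The receptors, binding proteins and carriers that act with IGF2 were examined as a list of 20 genes. Of 18 tested, 12 were called, with 2 higher and 10 lower, beside 17.9% higher and 16.0% lower of all genes tested. Their median log2 fold change was −0.46. The second ligand, *Igf1*, was 450.5, 456, 589 and 671 in sgScramble tumors and 222, 210.0 and 230.0 in sgKrt19 tumors. It fell by 1.27 on the log2 scale (SE 0.165, adjusted p = 0.00046), with a CV of 4.55% among the edited tumors. Among the receptors, *Igf1r*, which transmits the signal of both ligands, was 1262, 2288, 1400 and 2238 in sgScramble tumors and 1112, 1146 and 949 in sgKrt19 tumors. Its log2 fold change was −0.70 (SE 0.212, adjusted p = 0.0287), and the call was lost without any tumor other than sgScramble 1 or 3. *Igf2r*, which removes IGF2 from the cell surface, was 2246, 3217, 2328 and 3383 against 2603, 2736 and 1964 (−0.19, 95% interval −0.58 to 0.21). The insulin receptor gene *Insr* differed by −0.0029 (95% interval −0.34 to 0.33), and its sign changed when some tumors were left out.

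Binding proteins changed in both directions. *Igfbp2*, an IGF carrier, was 18.6, 24.7, 64.8 and 13 in sgScramble tumors and 210, 101 and 131 in sgKrt19 tumors. It rose by 2.44 (SE 0.476, adjusted p = 0.0039), and sgScramble 3 was again the highest control. *Igfbp5*, another carrier, was 6771, 14003, 10798 and 12647 against 1885, 2177 and 913, and fell by 2.78 (SE 0.311, adjusted p = 0.00021). *Igfals*, which stabilizes IGF complexes in plasma, held 65 reads in sgScramble and 7 in sgKrt19 tumors (ratio 6.14, 95% interval from the reads 2.82 to 15.9). *Stc2*, an inhibitor of the protease that cleaves IGF carriers, rose by 1.69 (SE 0.184, adjusted p = 0.00018), from 257 to 388 in sgScramble to 894 to 1313 in sgKrt19 tumors. *Igf2bp1*, an RNA-binding protein known to bind *Igf2* and *H19* transcripts, was 1297, 1728, 1280 and 1655 in sgScramble tumors and 128, 228 and 57.8 in sgKrt19 tumors. It fell by 3.62 (SE 0.363, adjusted p = 0.00012), the lowest log2 fold change of the 18 genes.

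Relatives of the members, and factors known to act on them, formed a list of 10 genes, of which 9 were tested and 6 called (34.0% of all genes tested were called). They were 2 higher and 4 lower (1 and 6 under scaling by library size alone). *Plag1*, the relative of *Plagl1* that is known to activate *Igf2*, was 120, 155, 105 and 223 in sgScramble tumors and 30.1, 30.0 and 28.4 in sgKrt19 tumors. The edited tumors were nearly identical, and the log2 fold change was −2.26 (SE 0.263, adjusted p = 0.00025). *Plagl2*, the third gene of that family, differed by −0.13 (adjusted p = 0.41) and is named beyond the rule for named genes. *Lin28b*, an RNA-binding protein that blocks let-7 microRNAs, had 197 reads in sgScramble tumors and 3 in sgKrt19 tumors, a ratio of 43.4 (95% interval from the reads 14.6 to 212). *Hmga2*, a chromatin protein and let-7 target, fell by 0.55 (adjusted p = 0.020), and lost the call without sgScramble 2, sgScramble 4, sgKrt19 5 or sgKrt19 8. *Grb14*, a relative of *Grb10*, was 560, 479, 488 and 584 against 235, 212 and 164 (−1.38, SE 0.158, adjusted p = 0.00023). *Cdkn1a*, the p21 relative of *Cdkn1c*, rose by 0.76 (adjusted p = 0.0119). *Dlk2*, the relative of *Dlk1*, rose by 0.92 (adjusted p = 0.0373). That call was lost under scaling by library size alone, without a filter on low values, and without any tumor other than sgScramble 3 or sgKrt19 5.

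Genes that set, keep or remove the methylation of imprinted regions formed a list of 17, of which 14 were tested, 0 rose and 5 fell (8 fell under scaling by library size alone). The share called in either direction was near the 34.0% of all genes tested. All 5 called genes were lower, where 16.0% of all genes tested were called lower and 17.9% higher. The median log2 fold change was −0.24. *Dnmt3a*, the methyltransferase that sets imprints in germ cells, was 2306, 2801, 2407 and 3299 in sgScramble tumors and 980, 1101 and 1154 in sgKrt19 tumors. It fell by 1.31 (SE 0.138, adjusted p = 0.00016). *Tet1* and *Tet2*, which oxidize methylated cytosine, fell by 1.26 (adjusted p = 0.0074) and 0.78 (adjusted p = 0.0124). *Zfp57*, the zinc finger protein that protects imprints, was 1178, 1755, 1311 and 1634 against 766, 831 and 1097, and fell by 0.71 (adjusted p = 0.0115). The maintenance methyltransferase *Dnmt1* (−0.25, adjusted p = 0.29) and *Ctcf*, which binds the region between *Igf2* and *H19* (0.15, adjusted p = 0.29), were not called. They are named beyond the rule for named genes, after their values were seen, for their known roles. DNA methylation was not measured.

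**Figure D4:**
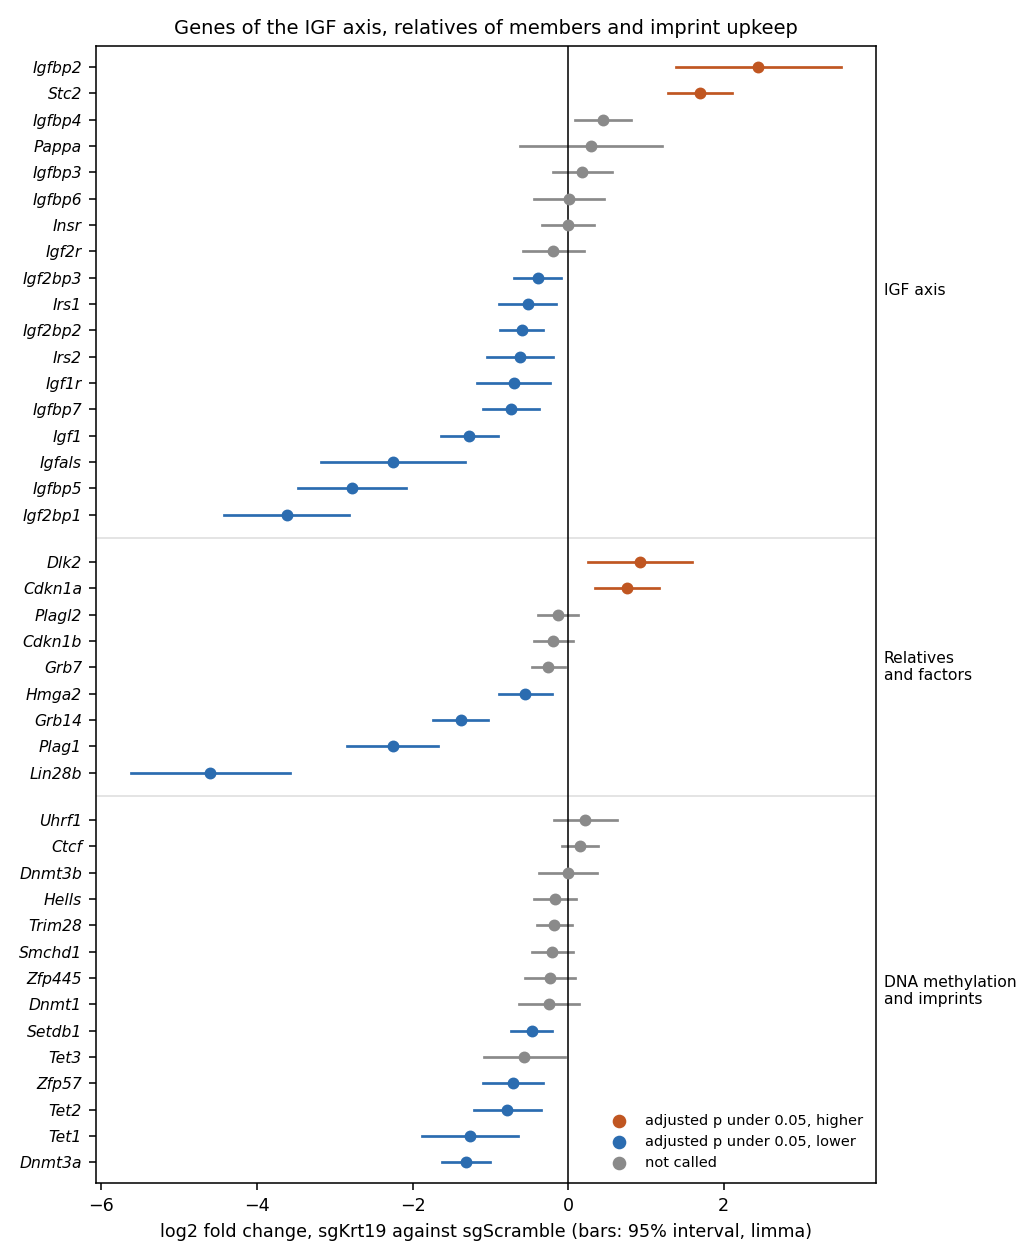
Log2 fold changes (horizontal axis, sgKrt19 against sgScramble, limma) of tested genes of the IGF axis, relatives and factors of the members, and genes that maintain methylation and imprints, with 95% intervals as bars and colors for calls at an adjusted p under 0.05. *Igfbp2*, *Stc2*, *Dlk2* and *Cdkn1a* are the only 4 called higher, and *Lin28b* and *Igf2bp1* have the lowest values.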

How the data were processed

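RNA of 7 subcutaneous tumors was sequenced. The labels name polyA RNA, whereas the methods of the study name a stranded total RNA kit. The authors deposited 1 table, whose signal values are reads per gene divided by a size factor of each library. Whole reads were recovered for 100% of values (tolerance 0.05 read). The submitters' processing notes name mm10. The aligner, counter and annotation are not given in the sources used here. Positions and exon lengths came from GENCODE M21 (GRCm38), which matched 97.6% of identifiers, and sequences from RefSeq (GRCm38.p6). TPM was computed from the recovered reads.

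Testing was limited to genes that reached a value of 10 in 3 or more libraries, on log2(value + 1) with limma 3.58.1 (lmFit, eBayes with trend; R 4.3.3) and Benjamini-Hochberg adjustment over all 21322 genes tested, at a threshold of 0.05. Nothing in the labels gives a batch. The study injected the right flank of mice, and the labels do not tie tumors to mice, so p-values measure the spread between these tumors. Alternatives were pseudocounts of 0.1 and 10, no filter, scaling by library size only, TMM scaling, edgeR 4.0.16 and DESeq2 1.42.0 on the recovered reads, limma's treat at a fold of 1.5, and leaving out each tumor. Ratios of neighbors were tested by exact permutation, and ratios of summed reads carry exact binomial intervals. A count of 3 reads (2.74 to 3.47 in value) was taken as the floor. Reads have no molecular identifiers, so intervals and floors cover counting error only.

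The members, lists and naming rule were chosen with earlier results of these data known. Named were the 10 members, *Krt19*, listed genes of the same imprinted clusters, and *Igf1*, *Igf1r*, *Insr* and *Igf2r*. Also named were up to 4 called genes of each list in each direction with the largest change and no overlap. *Plagl2*, *Dnmt1* and *Ctcf* were named beyond this rule. Scripts were tested on simulated data.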

Additional observations from a re-analysis of the deposited data

Results flagged for a closer look

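Among 56 items searched (54 tested genes named by the rule and 2 ratios of neighbors), 1 had a sgScramble tumor far from the other 3. *Rian* in sgScramble 4 (1187, against 751 to 787) lay apart by 0.898 of the range of its group, above Dixon's critical value for 4 samples. Chance flags about 1 in 20 groups of 4. Its call as lower was lost without that tumor and without sgScramble 2 or any sgKrt19 tumor. Groups of 3 tumors were not examined in this way.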

How the results depend on the processing

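No paired analysis was possible because the groups share no replicate number. For the 10 members, 140 of 150 values under the alternatives kept their direction and side of the threshold, 7 were no longer called, 3 were newly called and 0 changed sign. TPM was not among these alternatives. Mean TPM in sgScramble and sgKrt19 tumors was 35.1 and 28.8 for *H19*, and 8.14 and 7.19 for *Mest*. It was 1.86 and 1.66 for *Grb10*, and 0.499 and 0.446 for *Cdkn1c*. These genes, not called, were thus lower in sgKrt19 tumors by mean TPM and higher by log2 fold change. A test for changes beyond 1.5-fold called 1 member, 4 other imprinted genes, 6 genes of the IGF axis, 1 imprint maintenance gene, 3 relatives of members and 1336 of all genes. Library size as the only scaling called 8 imprint maintenance genes, all lower. It gave 2177 genes higher and 5727 lower over all genes, in place of 3820 and 3420. edgeR on the recovered reads called 7188 genes and 4 members, and DESeq2 called 5 members (1 higher and 4 lower). Leaving out each tumor gave 3 to 6 members, 10 to 21 other imprinted genes, 8 to 12 genes of the IGF axis, 4 to 6 imprint maintenance genes, 4 to 6 relatives and 4861 to 7714 of all genes. The fewest other imprinted genes were called without sgScramble 4 (10) and sgKrt19 5 (11), then without sgScramble 2 (12), sgKrt19 8 (12) and sgKrt19 6 (13). The test beyond a fold has a stricter null hypothesis, and leaving out a tumor leaves fewer samples. The cause of the other changes was not tested. Log2 values that changed sign all belonged to genes or ratios that were not called. *Zim1* was −0.090 with a pseudocount of 10, −0.91 with edgeR and −0.90 with DESeq2, and *Dio3* was −0.15 with library size only. Without sgScramble 1, 2 or 4 or sgKrt19 8 *Zim1* ran from −0.34 to 0.30. It was below the filter without sgScramble 3, sgKrt19 5 or sgKrt19 6 and under library size only. Without each tumor in turn *Dio3* ran from −0.21 to 0.28, *Kcnq1ot1* from −0.35 to 0.028, *Insr* from −0.099 to 0.075 and the log2 ratio of *Meg3* to *Dlk1* from −0.048 to 0.29. Depth limits *Igf2* in sgScramble tumors, and *Phlda2*, *Lin28b* and *Igfals* in sgKrt19 tumors.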
